A study of Mus musculus with 15 samples.

Results

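The comparison described here sets the histone variant H3.3 against the histone mark H3K36me3 over the protein-coding genes of mouse bone marrow-derived macrophages (BMDMs). Its members were 4 of the 15 samples of the series, the 2 H3.3-HA libraries and the 2 WT H3K36me3 libraries, and the genes compared were the 21911 protein-coding genes of GENCODE M21 on the mm10 build. Regions were taken as shared when the lists of both replicates touched the same merged interval, and for each gene the percent of its body covered by each target and the place of that cover along the gene were computed. The question was whether the variant and the mark, both tied to transcribed genes, cover the same genes and the same stretches of them. The 2 H3.3-HA samples came from H3f3b-HA knock-in mice, in which the product of H3f3b alone carries the HA tag, so H3.3 made from H3f3a was not seen. The 2 WT samples came from mice of the floxed colony without LysM-Cre, H3f3a fl/fl H3f3b fl/fl by the study's description. All 4 were CUT&RUN libraries (antibody-guided cutting of chromatin, then sequencing) of BMDMs with no treatment named in the labels, from young adult mice on a C57BL/6 background, males and females used, grown for 6 to 8 days with 10% serum and 20% L929 conditioned medium. The targets therefore differed in mouse line and antibody, and the file headers name different IgG controls (IgG for H3.3-HA, WT_IgG for H3K36me3), so target, line and control cannot be told apart.

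H3.3 is a histone H3 variant that cells deposit outside DNA replication. The HIRA complex places it at transcribed genes and enhancers, and the DAXX and ATRX proteins place it at repeats. H3K36me3, trimethylated lysine 36 of histone H3, is written by SETD2, which travels with elongating RNA polymerase II, and is known to build up toward the 3′ ends of transcribed genes. Both canonical H3 and H3.3 can carry the mark.

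Sequencing depth differed between the targets. Replicates 1 and 2 of H3.3-HA had 6951296 and 5365319 tags, 25.6% and 25.9% of them in regions. The H3K36me3 libraries were deeper, with 15086387 and 14027132 tags and 47.1% and 50.2% in regions. The H3.3-HA lists held 50456 and 49099 regions over 56.2 and 62.8 Mb, and the H3K36me3 lists 49741 and 49931 regions over 164 and 170 Mb. The median width was 787 and 823 bp for H3.3-HA and 1295 and 1332 bp for H3K36me3. The H3.3-HA replicates were less alike than the H3K36me3 replicates, with a base overlap (bases in both lists over bases in either) of 0.348 against 0.745. The overlap between targets was lower than both, 0.0611 to 0.0721 over the 4 pairings of libraries. Replicates 1 and 2 of H3.3-HA also differed in where they lay, as given below. Values of single libraries are therefore given beside many results. List counts, list medians and the order within lists and length classes rest on shared regions alone. Sharing left 27644 H3.3-HA regions of 58.8 Mb and 31537 H3K36me3 regions of 175.0 Mb. Of the shared length, 68.0% of H3.3-HA and 94.5% of H3K36me3 lay in protein-coding genes.

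The genomic stretches behind the comparison are shown by 6 windows of 300 bases, each the centre of a shared region inside a gene body, clear of annotated exons and read along the gene's strand (GRCm38.p6, the assembly of mm10). The first 3 are the widest H3.3-HA regions that touch no H3K36me3 region and hold the letters bound by PU.1, the transcription factor that defines myeloid cells, and were chosen after the counts of these letters were known. The next pair is from Impdh1, which encodes an enzyme of guanine nucleotide synthesis, and shows an H3.3-HA region that touches no H3K36me3 beside an H3K36me3 region that touches no H3.3-HA. The last is from Wdr11, a gene with H3K36me3 over nearly its whole body and no H3.3-HA region. Capitals mark matches to the letters of 4 motifs given further on, and all other bases are in lower case.
Rad23b, H3.3-HA, chr4:55362872-55363171, + strand: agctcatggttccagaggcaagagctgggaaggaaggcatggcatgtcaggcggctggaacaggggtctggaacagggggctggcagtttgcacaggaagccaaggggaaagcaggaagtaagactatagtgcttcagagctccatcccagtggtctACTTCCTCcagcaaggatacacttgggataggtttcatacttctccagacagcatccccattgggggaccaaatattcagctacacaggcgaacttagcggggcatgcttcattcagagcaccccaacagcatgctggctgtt
Armc9, H3.3-HA, chr1:86216398-86216697, + strand: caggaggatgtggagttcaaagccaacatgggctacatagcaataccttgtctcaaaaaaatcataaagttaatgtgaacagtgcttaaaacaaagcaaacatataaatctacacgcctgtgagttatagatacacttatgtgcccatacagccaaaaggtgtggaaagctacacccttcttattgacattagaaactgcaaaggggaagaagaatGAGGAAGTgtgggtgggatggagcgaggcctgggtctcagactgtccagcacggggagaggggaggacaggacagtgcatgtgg
Sgms1, H3.3-HA, chr19:32304063-32304362, − strand: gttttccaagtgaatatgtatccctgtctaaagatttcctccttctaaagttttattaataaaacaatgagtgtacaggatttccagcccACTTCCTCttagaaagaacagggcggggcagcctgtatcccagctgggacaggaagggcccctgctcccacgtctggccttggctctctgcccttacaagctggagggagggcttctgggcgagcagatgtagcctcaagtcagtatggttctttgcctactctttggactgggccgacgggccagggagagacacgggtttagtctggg
Impdh1, H3.3-HA, chr6:29211267-29211566, − strand: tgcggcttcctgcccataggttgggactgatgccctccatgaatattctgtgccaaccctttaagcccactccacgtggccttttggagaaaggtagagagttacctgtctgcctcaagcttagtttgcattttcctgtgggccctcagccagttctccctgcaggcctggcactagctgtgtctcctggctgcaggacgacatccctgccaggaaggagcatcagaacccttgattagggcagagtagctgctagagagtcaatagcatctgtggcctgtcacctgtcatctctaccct
Impdh1, H3K36me3, chr6:29204695-29204994, − strand: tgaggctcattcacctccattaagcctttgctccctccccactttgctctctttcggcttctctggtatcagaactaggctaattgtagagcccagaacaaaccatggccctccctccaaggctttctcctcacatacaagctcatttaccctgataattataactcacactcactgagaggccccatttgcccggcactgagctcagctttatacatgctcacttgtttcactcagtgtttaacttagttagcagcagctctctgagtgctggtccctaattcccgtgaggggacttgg
Wdr11, H3K36me3, chr7:129615560-129615859, + strand: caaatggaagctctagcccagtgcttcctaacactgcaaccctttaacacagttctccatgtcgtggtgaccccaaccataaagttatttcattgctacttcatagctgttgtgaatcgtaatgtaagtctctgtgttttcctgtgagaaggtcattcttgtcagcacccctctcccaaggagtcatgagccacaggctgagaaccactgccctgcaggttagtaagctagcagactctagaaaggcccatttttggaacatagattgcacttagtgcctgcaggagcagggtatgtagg
The regions around the first 3 windows were 7607, 5611 and 5326 bp wide and lay 12.8, 61.6 and 85.4 kb into genes of 42.2, 124 and 267 kb. In Impdh1 the H3.3-HA window lay 4.80 kb and the H3K36me3 window 11.4 kb from the gene start, so the variant was nearer the start, and neither holds any of the 4 motifs. A shared region need not be covered by both replicates at its centre. In Impdh1 H3.3-HA replicate 1 covered 3.14% of the body, centred 35.1% of the way along it and past the window, which rests on replicate 2. The window of Wdr11 holds none of them either.

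H3K36me3 covered more of the genes than H3.3-HA did. The mean percent of the body covered, over all 21911 genes, was 4.88% and 7.48% in the H3.3-HA libraries (6.18% ± 1.84, SD, n = 2) and 20.3% and 21.2% in the H3K36me3 libraries (20.7% ± 0.658, SD, n = 2). The targets did not overlap, and the difference of 14.5 percentage points was larger than the spread within either pair. An exact two-sided permutation test of 2 against 2 cannot go below p = 0.333, which it gave here and for each of the 6 measures compared between the targets (0.333 after Benjamini-Hochberg adjustment over the 6). The size of this difference changed with the length of the lists. With regions taken in the deposited order, which falls with width, until each list covered the 56.2 Mb of the shortest, the means over shared regions were 5.94% for H3.3-HA and 5.87% for H3K36me3. Setting the covered lengths equal by itself brings such means closer. Counting only the bases covered in both replicates gave 2.99% for H3.3-HA and 18.2% for H3K36me3.

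A shared H3.3-HA region lay in 7799 genes (35.6% of all tested), a shared H3K36me3 region in 9799 (44.7%), both in 6205 (28.3%), H3.3-HA alone in 1594 (7.27%), H3K36me3 alone in 3594 (16.4%) and neither in 10518 (48%). H3K36me3 was found in 79.6% of the genes with H3.3-HA (95% Wilson interval 78.7 to 80.4) and in 25.5% of those without it (24.8 to 26.2). The reverse share was lower, since H3.3-HA was found in 63.3% of the genes with H3K36me3 (62.4 to 64.3) and in 13.2% of those without. These intervals cover counting error over genes only. The counts of single-target genes moved when 1 H3.3-HA library was left out, which takes the other list whole, with no sharing rule. Without replicate 1 they were 2426 for H3.3-HA alone and 2235 for H3K36me3 alone, and without replicate 2 they were 2226 and 2556. With lists of equal covered length both targets were found in 1769 genes, H3.3-HA alone in 5525 and H3K36me3 alone in 596. That setting keeps 50456 and 36265 H3.3-HA regions but only 2832 and 2649 H3K36me3 regions, the widest. Fewer genes with H3K36me3 follow from that cut, so this setting cannot settle which target stands alone more often. With regions of 1 kb or more, both were found in 3907 genes and H3.3-HA alone in 817. In the genes with both, the median cover was 11.1% for H3.3-HA and 53.1% for H3K36me3, and H3K36me3 covered more of the body in 5364 of 6205 genes (86.4%). High cover by H3.3-HA was rare: 591 genes had 50% or more of the body under shared H3.3-HA, against 5051 under H3K36me3. The libraries behind that count differed, with 171 and 697 genes in the H3.3-HA replicates and 4471 and 4740 in the H3K36me3 replicates. Genes with both were longer (median 31.8 kb) than genes with H3.3-HA alone (23.2 kb), H3K36me3 alone (18.2 kb) or neither (9.91 kb). Across the 21911 genes the covers rose together, with Spearman's rho 0.517 and Pearson's r 0.323, given as a description since genes share libraries and length.

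Among the 13888 genes of 5 kb or more that overlap no other protein-coding gene, 1044 had H3.3-HA and no shared H3K36me3. The gene with the most H3.3-HA among them was 6430531B16Rik (chr7:139972303-139978755), with 81.0% and 84.0% of its 6453 bp covered in the H3.3-HA replicates and 0% in both H3K36me3 replicates. Next came Unc119, which encodes a carrier of lipid-modified proteins, at 38.1% and 93.9% H3.3-HA and 0% and 7.28% H3K36me3. Cracr2b, which encodes a regulator of calcium entry, had 42.9% and 90.7% H3.3-HA and 0% H3K36me3 in both libraries. The replicates of H3.3-HA differed widely in Unc119 and Cracr2b. These genes were picked for high shared H3.3-HA and no shared H3K36me3, so H3.3-HA above H3K36me3 in them follows from the choice. Dmpk, a kinase gene, had 22.7% and 75.8% H3.3-HA, and Mmachc, a gene of cobalamin handling, had 67.2% and 62.4%, with H3K36me3 at 0% in Dmpk and at 0% and 10.3% in Mmachc. The rule looked at gene bodies only. Outside the body, shared H3.3-HA regions of 6430531B16Rik, Cracr2b, Dmpk and Mmachc overlapped shared H3K36me3. The main region of Mmachc, of 14767 bp, also covers part of the neighbouring Prdx1, named below among genes with the most of both.

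H3K36me3 without shared H3.3-HA was found in 2224 of those 13888 genes. The list was headed by Gm10717 (chr9:3025417-3033289), where a merged region of 14506 bp spanned the gene with 100% cover in H3K36me3 replicate 1 and 0% in replicate 2, which touched that region only outside the gene. The other leading genes were alike in both libraries. Wdr11 (chr7:129591863-129635738), which encodes a WD-repeat protein, had 94.3% and 95.8% of its 43876 bp under H3K36me3 and 0% under H3.3-HA in both. Zfp110, a zinc finger gene, had 96.5% and 94.6% H3K36me3 against 6.33% and 0% H3.3-HA. Ercc3, which encodes a helicase of the transcription factor TFIIH, had 95.6% and 94.2% H3K36me3 against 0.563% and 3.96% H3.3-HA. AU041133 had 96.5% H3K36me3 in both libraries and 0% H3.3-HA in both.

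The genes with the most of both targets were Lpl, BC005537, Prdx1, Sh3bp2 and Cyth4. Lpl, which encodes lipoprotein lipase (chr8:68880491-68907448), had 72.9% and 86.7% H3.3-HA and 88.9% and 88.7% H3K36me3. Prdx1, a peroxiredoxin gene that removes peroxides, had 70.1% and 77.6% H3.3-HA and 87.7% and 88.9% H3K36me3. BC005537 had 70.2% and 78.6% H3.3-HA and 82.1% and 84.0% H3K36me3. In these 3 genes the covers of both targets came near each other in every library. In Sh3bp2, which encodes a signalling adaptor, and Cyth4, which encodes an exchange factor for ARF GTPases, the H3.3-HA value rested on replicate 2, at 39% and 77.7% in Sh3bp2 and 24.6% and 83.1% in Cyth4, while H3K36me3 was at 83.7% and 83.4% and at 76.9% and 82.1%.

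The targets lay in different parts of the genes. The bodies of the 17779 genes of 5 kb or more were cut into equal 5′ end, middle and 3′ end parts, each of which would hold 33.3% of the covered bases if cover were even. The 5′ end part held 37.3% and 40.2% of the H3.3-HA bases and 19.7% and 20.0% of the H3K36me3 bases. The middle part held 31.3% and 29.6% of H3.3-HA and 34.6% and 34.5% of H3K36me3. The 3′ end part held 31.4% and 30.1% of H3.3-HA and 45.7% and 45.4% of H3K36me3. In all parts the libraries of 1 target lay apart from those of the other, and H3K36me3 minus H3.3-HA was -18.9 percentage points at the 5′ end, 4.08 in the middle and 14.8 at the 3′ end. The exact permutation p was 0.333 for each, the smallest 2 against 2 allows. Both H3K36me3 libraries rose from the 5′ end to the 3′ end, and both H3.3-HA libraries were highest at the 5′ end when bases were pooled over genes. When each gene's own shares were averaged over genes, in place of pooling bases, H3.3-HA held 42.6% at the 5′ end and 32.2% at the 3′ end, and H3K36me3 17.2% and 49.9%.

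**Figure D1:**
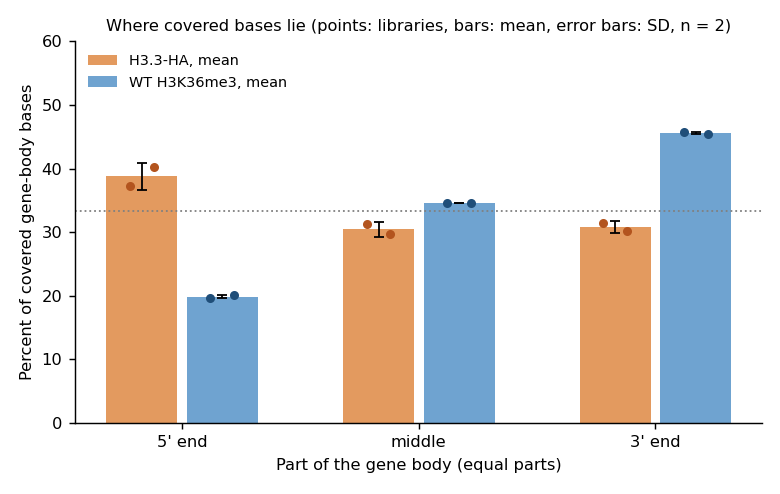
Percent of covered gene-body bases (y axis) in the 5′ end, middle and 3′ end parts (x axis) of 17779 genes of 5 kb or more, for H3.3-HA and WT H3K36me3; points are libraries, bars the mean, error bars the SD (n = 2), and the dotted line the 33.3% of even cover. H3.3-HA is highest at the 5′ end (37.3% and 40.2%) and H3K36me3 at the 3′ end (45.7% and 45.4%).

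Along the average gene H3K36me3 rose steeply toward the end, and H3.3-HA varied less. Mean H3K36me3 cover was lowest in the first of 20 bins of the body, at 1.78% and 1.94%, reached 25.8% and 26.9% in bin 10, and was highest in bin 18, at 32.5% and 33.5%. It fell to 12.3% and 12.6% at 5 kb past the gene end. Mean H3.3-HA cover was 4.58% and 6.09% in bin 10 and 7.71% and 9.38% in the last bin. The replicates parted at the start of the gene, where H3.3-HA in bin 1 was 4.75% in replicate 1 and 11.2% in replicate 2. With genes weighted equally in this way, replicate 1 was highest in the last bin of the body and replicate 2 in the first. Outside the body, H3.3-HA was raised on both sides, at 6.40% and 11.6% in the 500 bp before the start and 8.86% and 11.1% in the 500 bp after the end, while H3K36me3 was at 0.748% and 0.785% before the start.

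**Figure D2:**
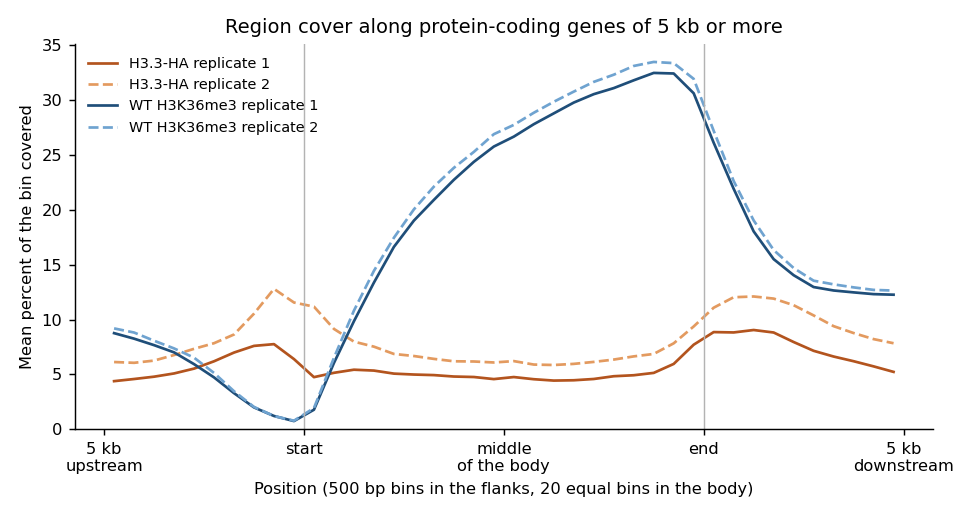
Mean percent of each bin covered (y axis) from 5 kb upstream to 5 kb downstream of 17779 genes of 5 kb or more (x axis, 500 bp bins in the flanks and 20 equal bins in the body), 1 line per library. H3K36me3 rises from 1.78% and 1.94% in the first body bin to 32.5% and 33.5% in bin 18, and H3.3-HA stays within 4.44% to 7.71% in replicate 1 and 5.86% to 11.2% in replicate 2 within the body.

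Single positions showed the same order between the targets. Within H3.3-HA they did not, since replicate 1 covered the end base more often than the start base and replicate 2 covered them about equally. H3.3-HA covered the start base of 4.83% and 10.3% of the genes of 5 kb or more, and H3K36me3 of 0.630% in each library. H3.3-HA covered the end base of 9.03% and 10.2% of these genes, and H3K36me3 of 28.1% and 29.2%. Neither pair overlapped the other, with an exact permutation p of 0.333 for both. The difference at the start base, H3K36me3 minus H3.3-HA, was -6.94 percentage points, -9.67 without H3.3-HA replicate 1 and -4.20 without replicate 2. The difference at the end base, 19.01, turned with lists of equal covered length, where H3.3-HA covered 9.28% of end bases and H3K36me3 8.60%. In the 9064 genes of 5 kb or more with shared H3K36me3, its first base lay at a median of 4.81 kb from the gene start (quartiles 2.46 and 11.97 kb). The mark reached the end base in 59.9% of these genes and the start base in 1.37%.

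Within genes that had both, H3.3-HA usually lay nearer the start. The centre of cover, the mean position of covered bases with 0 at the gene start and 100 at its end, had a median of 46.0 for H3.3-HA and 61.3 for H3K36me3 over 5883 genes of 5 kb or more with both. H3.3-HA was nearer the start in 4136 of them (70.3%, Wilson interval 69.1 to 71.5), and in 69.7% to 75.7% over the 4 pairings of single libraries. The median gap was 17.8% of the gene length. H3.3-HA lay over 25% of the gene length nearer the start in 2444 genes and over 25% nearer the end in 672. The order depended on gene length. H3.3-HA was nearer the start in 53.7% of the genes under 5 kb with both, 57.4% of those of 5 to 20 kb, 69.4% at 20 to 50 kb, 81.1% at 50 to 100 kb and 82.7% at 100 kb or more. In genes of 5 to 20 kb the 5′ end part held 29.5% and 35.7% of H3.3-HA and the 3′ end part 40.5% and 36.7%, so in these genes H3.3-HA was not highest at the 5′ end in either library. In genes of 50 to 100 kb the 5′ end part held 39.97% and 43.0% and the 3′ end part 28.3% and 26.3%. H3K36me3 was highest at the 3′ end in every length class, from 42.6% to 58.8% in single libraries.

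Among the 2070 genes with 10% or more of both that overlap no other gene, those whose H3.3-HA centre lay farthest on the start side of the H3K36me3 centre were Thap3, Fam110a, Tsku, Cmklr1 and Fis1, with gaps of 86.2, 81.7, 79.9, 79.5 and 78.7. Cmklr1, which encodes a receptor for the chemoattractant chemerin, had shared H3.3-HA centred at 7.48 on the scale of 0 to 100, with 5.70 kb of cover in the 5′ end part and 0 in the others. In the single libraries, each of which held 1 more region of 501 bp farther along the gene, the centre was 17.3 and 12.8. Its H3.3-HA cover was 8.34% and 16.3% and its H3K36me3 cover 14.0% and 18.1% in the single libraries. Fis1, which encodes a protein of mitochondrial fission, had shared H3.3-HA centred at 8.88, and 2.302 kb of its cover lay in the 5′ end part. In the single libraries the H3.3-HA centre of Fis1 was 15.1 and 37.0. Thap3 had no H3.3-HA cover in replicate 1 and 11.2% in replicate 2. The genes whose H3.3-HA centre lay farthest on the end side of the H3K36me3 centre were Babam1, Dlgap5, Hmgn1, Frmd8 and Sufu. Dlgap5, a gene of the mitotic spindle, had H3.3-HA at 23.1% and 29.4%, centred at 86.1 and 82.0 in the single libraries, with all 9.17 kb of shared cover in the 3′ end part. Hmgn1, which encodes a nucleosome-binding protein, had H3.3-HA at 14.1% and 12.9% and H3K36me3 at 55.5% and 66.0%. Of these 5 genes, Dlgap5 and Sufu, a brake on hedgehog signalling, had H3.3-HA centred past 75 in both libraries.

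Genes with more H3K36me3 had more H3.3-HA, up to a level. Mean H3.3-HA cover in replicates 1 and 2 was 1.61% and 3.08% in the 12112 genes with no shared H3K36me3, 7.04% and 10.5% in those with 10 to 25% of the body under the mark, 10.5% and 15.2% at 50 to 75% and 10.9% and 15.1% at 75 to 100%. Both libraries rose over the first classes and changed little between the last classes. Shared H3.3-HA over the start base rose from 2.90% of the genes without H3K36me3 to 12.7% at 50 to 75% and was 11.3% at 75 to 100%. Over the end base it rose from 1.93% to 31.3%. The genes in these classes differed in length, from a median of 10.9 kb without the mark to 62.2 kb at 0 to 10% and 22.5 kb at 75 to 100%.

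**Figure D3:**
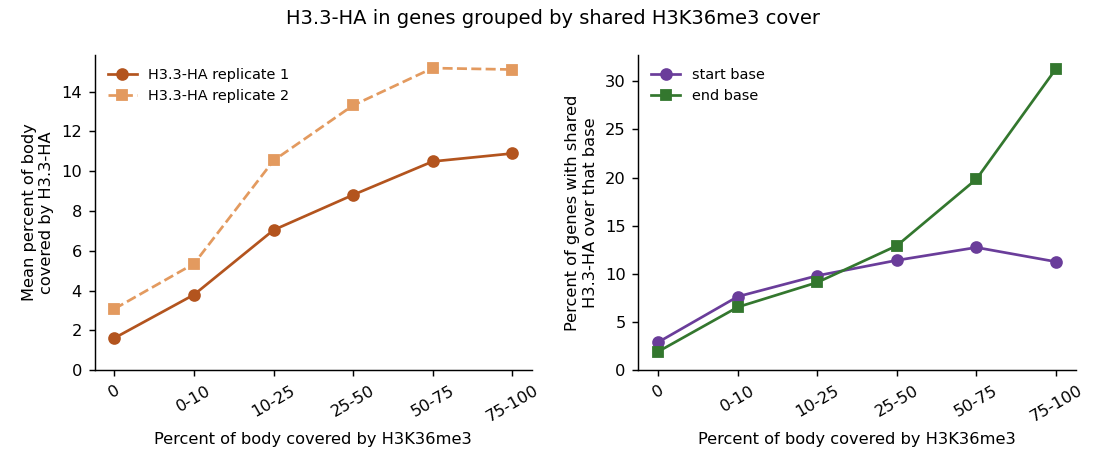
Left, mean percent of the body covered by H3.3-HA (y axis) in each library, and right, percent of genes with shared H3.3-HA over the start base and over the end base (y axis), for genes grouped by the percent of the body under shared H3K36me3 (x axis). H3.3-HA cover rises from 1.61% and 3.08% to 10.9% and 15.1%, and the share with H3.3-HA over the end base rises to 31.3% while that over the start base stays at or under 12.7%.

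H3.3-HA lay under H3K36me3 more often than gene-body bases as a whole did, but not when only the genes with both targets were counted. Of the H3.3-HA bases in genes, 33.4% lay inside H3K36me3 regions (30.05% to 33.2% over the 4 pairings of libraries), against 15.9% of all gene-body bases. In the genes with both targets, H3.3-HA covered 10.3% of the bases under H3K36me3 and 10.1% of the other bases. In the pairings of single libraries these values were 9.16% and 9.17% against 9.24% for H3.3-HA replicate 1, and 10.9% against 10.1% and 10.0% for replicate 2, so the replicates differed in sign. With lists of equal covered length 13.1% of the genic H3.3-HA length lay inside H3K36me3. Along the gene, H3.3-HA covered 6.22% and 7.91% of the bases between the gene start and the first H3K36me3 base, 8.28% and 8.88% of the stretch from the first to the last H3K36me3 base, and 3.01% and 3.05% of what lay between the last H3K36me3 base and the gene end. Both libraries were lowest in that last stretch, which existed in 3639 of the 9064 genes.

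The genes that the study displays as examples covered the range. Adgre1, which encodes the macrophage surface protein F4/80 (chr17:57358691-57483527, 124837 bp), had 15.4% and 23.4% H3.3-HA and 70.4% and 69.1% H3K36me3. Its shared H3.3-HA cover was 11.8 kb in the 5′ end part, 11.7 kb in the middle and 4.73 kb in the 3′ end part, with a centre of 36.2. In the single libraries the H3.3-HA centre was farther along, at 43.4 and 46.1. H3f3a, which encodes untagged H3.3, had 39.2% and 35.7% H3.3-HA and 72.3% and 77.8% H3K36me3, and H3f3b, the tagged gene, had 21.6% and 30.4% against 10.7% and 14.2%. In H3f3b the order of the targets was thus turned, with H3.3-HA above H3K36me3 in both libraries of each. Impdh1 had 3.14% and 26.9% H3.3-HA, centred at 23.2 for shared regions, and 36.6% and 36.5% H3K36me3. Lpin1, which encodes a phosphatidate phosphatase, had 3.72% and 3.40% H3.3-HA and 55.5% and 55.1% H3K36me3. Ifi44, an interferon-stimulated gene, and Cntnap5c, a neuronal gene next to Adgre1, had 0% of both targets in all 4 libraries.

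**Figure D4:**
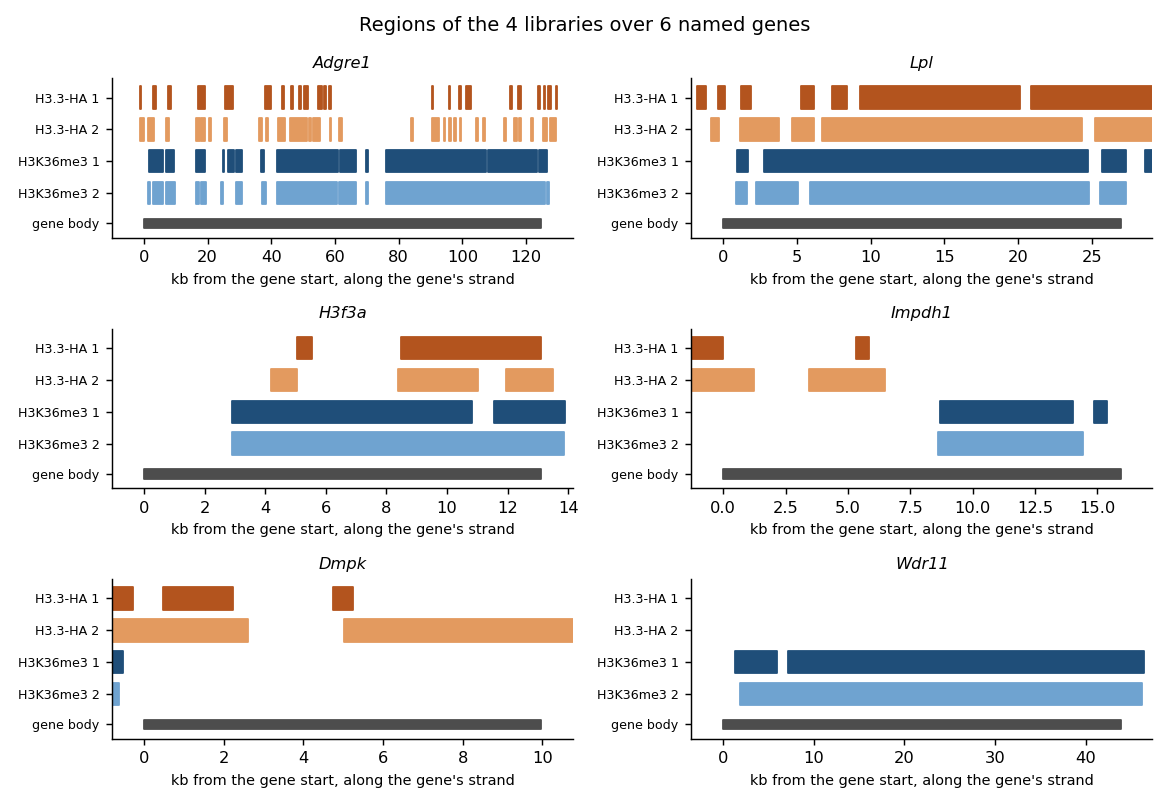
Regions of the 4 libraries (rows) along Adgre1, Lpl, H3f3a, Impdh1, Dmpk and Wdr11 (x axis, kb from the gene start along the gene's strand; the grey bar is the gene body). Impdh1 shows H3.3-HA toward the start and H3K36me3 toward the end, Lpl shows both over most of the body, Dmpk has H3.3-HA regions and no H3K36me3 in the body, and Wdr11 has H3K36me3 and no H3.3-HA region.

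Lists of genes were described by their counts beside the 35.6% of all genes with H3.3-HA and the 44.7% with H3K36me3. Of 20 macrophage genes, 18 had H3.3-HA and 17 had H3K36me3, with a median cover of 50.5% and 71.9% against 0% for both over all genes, so the markers of the labelled cell type were covered. These medians are for shared regions, and the list's mean H3.3-HA cover was 24.5% in replicate 1 and 44.1% in replicate 2. Cebpb was at 0% in all 4 libraries, and Cd68 had 32.3% H3.3-HA in replicate 2 and 0% in the others. Lyz2, the lysozyme gene of macrophages, had 62.1% and 79.8% H3.3-HA and 66.1% and 64.3% H3K36me3. Fcgr1, a receptor for IgG, had 33.2% and 71.2% H3.3-HA and 94.2% and 92.0% H3K36me3. Irf8, a transcription factor of the lineage whose span overlaps another gene, had 31.0% and 78.5% against 81.0% and 88.7%, and Trem2, a lipid-sensing receptor, 45.9% and 71.8% against 76.3% and 79.8%. In Lyz2 the pairs overlapped, and in Fcgr1, Irf8 and Trem2 every H3K36me3 library was above every H3.3-HA library.

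Markers of other cells that a marrow culture could hold carried no shared H3K36me3: 0 of 8 neutrophil genes, 0 of 5 T cell, 0 of 5 B cell, 0 of 5 fibroblast and 0 of 4 erythroid genes. H3.3-HA was found in 2 of the neutrophil genes, 2 of the T cell genes and 2 of the B cell genes, and in none of the fibroblast and erythroid genes. S100a8, a calcium-binding protein of neutrophils and monocytes, had 26.2% and 21.6% H3.3-HA, and Ltf, the lactoferrin gene of neutrophil granules, had 13.1% and 12.4%. Cd79a, of the B cell receptor, had 33.3% and 34.1%, Ms4a1 17.8% and 3.81%, Cd4 6.10% and 11.2%, and Lck, a kinase of T cell receptor signalling, 1.98% and 6.59%. All 6 were at 0% H3K36me3 in both libraries. Elane, Mpo, Ly6g, S100a9 and Camp were at 0% in all 4 libraries, as were Pax5, Ebf1, Cd3e, Cd8a and the 5 fibroblast genes. H3.3-HA was present in 1 library alone in Ngp (15.3%, replicate 1), Cd3d (9.02%, replicate 2) and Klf1 (14.9%, replicate 2). The share of other cells in these cultures was not measured, and its part in the H3.3-HA values was not tested.

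The genes of the variant and the mark themselves were mostly covered by both. Of 11 genes of H3.3 deposition, 10 had H3.3-HA and 11 had H3K36me3. Daxx had 15.0% and 60.8% H3.3-HA and 58.2% and 66.3% H3K36me3. Ubn1, of the HIRA complex, had 12.5% and 5.48% against 91.7% and 91.9%, and Dek, a chromatin protein whose gene overlaps another, had 19.2% and 6.59% against 88.0% and 83.7%. Of 9 genes listed as writers of H3K36 methylation, 7 had H3.3-HA and 9 H3K36me3, and in all 7 with both H3.3-HA lay nearer the start, beside 81.1% of all genes of 50 to 100 kb, the class of the list's median length of 77.3 kb. Setd2, the gene of the H3K36 trimethylase, had 6.73% and 1.81% H3.3-HA, centred at 37.9 and 4.80 in the single libraries, and 79.3% and 79.0% H3K36me3, centred at 56.1 for shared regions. The place of H3.3-HA in Setd2 thus differed between the replicates. Nsd1 had 15.1% and 13.2% H3.3-HA against 86.4% and 86.1%, and Setd5 32.6% and 25.6% against 64.4% and 70.9%. In Setd2, Nsd1 and Setd5 the H3K36me3 libraries were far above the H3.3-HA libraries. Of 6 demethylase genes, 5 had both and Kdm8 had neither among shared regions. H3.3-HA was nearer the start in 1 of the 5, beside 81.1% of all genes of 50 to 100 kb with both, the class of the list's median length of 80.3 kb. Kdm2a and Kdm4a, both erasers of H3K36 methylation, had H3.3-HA centred at 67.1 and 77.8 and H3K36me3 at 51.0 and 51.4. Of 17 reader genes, 12 had H3.3-HA and 15 H3K36me3, and Dnmt3b, a DNA methyltransferase, had no shared region.

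Genes of the elongation machinery, which carries SETD2, had H3K36me3 in 20 of 20 and H3.3-HA in 14 of 20, with a median cover of 78.3% against 8.62%. Ell2, of the super elongation complex, had 38.2% and 46.5% H3.3-HA and 90.8% and 93.6% H3K36me3. Cdk9, the kinase of P-TEFb, had 17.8% and 45.2% against 82.8% and 84.7%. Of 25 interferon genes, 20 had H3.3-HA and 20 H3K36me3, and Ifi44 and Isg15 were at 0% in all 4 libraries. Irf7, a transcription factor of the interferon response that overlaps another gene, had 38.0% and 100% H3.3-HA and 54.1% and 53.1% H3K36me3. The H3.3-HA mean of this list was 7.92% in replicate 1 and 23.9% in replicate 2, a wider gap than the 4.88% and 7.48% over all genes. H3.3-HA lay nearer the start in 7 of the 16 interferon genes of 5 kb or more with both. The share was 70.3% in all such genes and 57.4% in those of 5 to 20 kb, the class of the list's median length.

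Lysosomal, phagocytic and lipid genes, which serve the main work of macrophages, were covered by both targets more often than all genes. The same held for lists of other functions, such as H3.3 deposition and cytosolic ribosomal protein genes. Genes of 20 to 50 kb, the class of the lysosomal and lipid median lengths, had H3.3-HA in 44.8% and H3K36me3 in 59.0%. For genes of 50 to 100 kb the shares were 54.1% and 60.8%. Of 30 lysosomal genes, 29 had H3.3-HA and 30 H3K36me3, with a median cover of 32.7% and 71.6%. Ctsd, the cathepsin D gene, which overlaps another gene, had 72.0% and 88.1% H3.3-HA and 95.2% and 88.0% H3K36me3. Psap, which encodes the saposin precursor, had 35.6% and 77.6% against 64.4% and 80.4%, and Ctsc, a cathepsin gene, had 44.1% and 49.0% against 94.1% and 92.9%. H3.3-HA lay nearer the start in 11 of the 28 lysosomal genes of 5 kb or more with both, against 70.3% of all such genes. Of 20 phagocytosis and actin genes, 18 had H3.3-HA and 20 H3K36me3, and H3.3-HA was nearer the start in 17 of the 18 with both, beside 81.1% of all genes of 50 to 100 kb, the class of the list's median length of 51.3 kb. Nckap1l, of the WAVE complex that drives actin branching, had 46.7% and 68.9% H3.3-HA and 87.5% and 92.3% H3K36me3, and Arpc2, of the ARP2/3 complex, had 46.6% and 64.6% against 74.8% and 78.0%. Of 25 lipid and sterol genes, 20 had H3.3-HA and 22 H3K36me3, and Scd1 had no shared region.

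Of 90 oxidative phosphorylation genes, 80 (88.9%) had H3K36me3 and 27 (30%) H3.3-HA, and 55 had H3K36me3 alone. Genes of 5 to 20 kb, the length class of the list's median of 7.42 kb, had H3.3-HA in 29.4% and H3K36me3 in 43.5%. The exceptions included Atp5b, a subunit of ATP synthase, with 43.2% and 50.4% H3.3-HA and 84.4% and 86.9% H3K36me3. Of 391 Zfp genes, 306 (78.3%) had H3K36me3 and 112 (28.6%) H3.3-HA, and H3.3-HA was nearer the start in 80 of the 94 of 5 kb or more with both, beside 70.3% of all such genes and 57.4% of those of 5 to 20 kb, the class of the family's median length of 17.5 kb. Zfp120 had 12.3% and 13.4% H3.3-HA, centred at 11.7 for shared regions, and 92.7% H3K36me3 in both libraries, centred at 53.6. Zfp710 had the most shared H3.3-HA of the family, 77.2%, with 36.3% and 79.3% in the single libraries. Of 83 cytosolic ribosomal protein genes, 67 had H3.3-HA and 75 H3K36me3, with a median cover of 31.9% and 68.1%, and H3.3-HA was nearer the start in 1 of the 16 of 5 kb or more with both, beside 57.4% of all genes of 5 to 20 kb with both. Rps15a, of the small ribosomal subunit, had 46.1% and 76.5% H3.3-HA and 77.4% and 73.6% H3K36me3.

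Replication-coupled histone genes showed the opposite order. Of 67, 25 (37.3%) had H3.3-HA, 1 (1.49%) had H3K36me3 and none had both. The H3.3-HA share was near the 35.6% of all genes, and the H3K36me3 share was far below the 44.7% of all genes. Genes under 5 kb, the class of the list's median length of 0.539 kb, had H3.3-HA in 14.7% and H3K36me3 in 17.8%. Hist1h1b and Hist1h2af were covered over 100% of the body in both H3.3-HA libraries and 0% in both H3K36me3 libraries. Hist1h2ag had 0% and 100% H3.3-HA and Hist1h2ak 100% and 2.29%, so the replicates went against each other in these short genes. The list's mean H3.3-HA cover was 21.01% and 31.4%, and its mean H3K36me3 cover 0.0859% and 0.0682%. Near-identical copies in this family can share reads, and the region lists do not show how such reads were placed. Of 1092 olfactory receptor genes, which macrophages are not known to use, 9 (0.824%) had H3.3-HA and 3 (0.275%) H3K36me3, and none of 326 vomeronasal receptor genes had a shared region of either target. Olfr460 had the most shared H3.3-HA of them, 32.5%, with 21.6% and 30.6% in the single libraries and 0% H3K36me3.

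**Figure D5:**
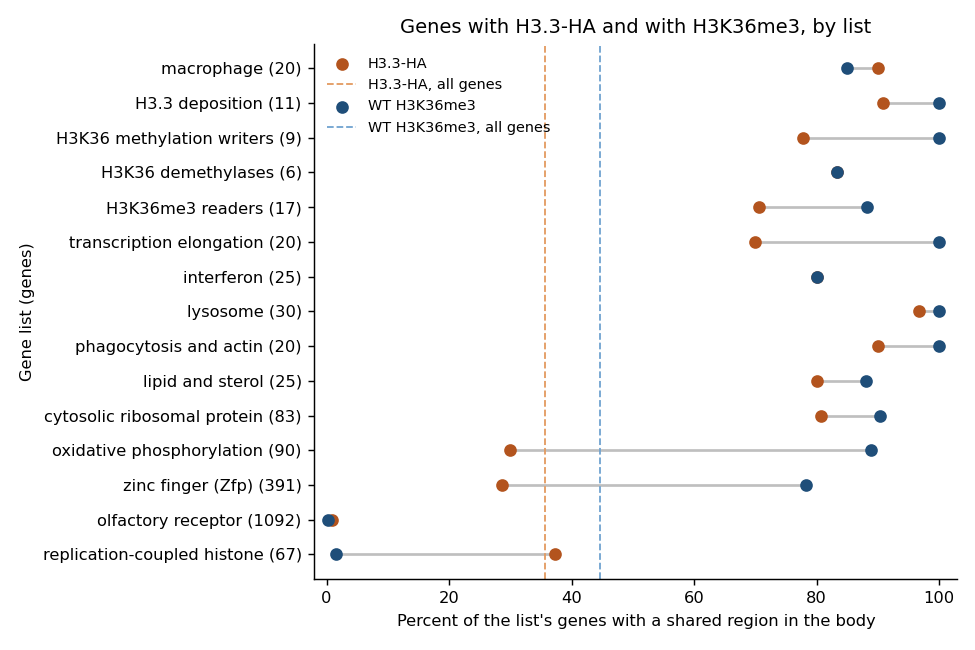
Percent of each list's genes (x axis) with a shared H3.3-HA or H3K36me3 region in the body, by list (y axis, number of genes in brackets); dashed lines mark the 35.6% and 44.7% of all genes. Macrophage, lysosomal and ribosomal protein genes lie to the right for both targets, oxidative phosphorylation and Zfp genes are parted toward H3K36me3, and replication-coupled histone genes toward H3.3-HA. The H3.3-HA share of the replication-coupled histone genes is near that of all genes.

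Other readouts were set beside H3.3-HA regions inside and outside H3K36me3. Of the shared H3.3-HA regions, 10703 had their centre in a gene and touched no H3K36me3, 4333 in genes were partly under the mark, 3040 in genes lay wholly inside it, 8366 between genes touched none, and 1202 between genes touched it. WT H3K27ac, a mark of active enhancers and promoters measured in the same WT line and not used to choose any region, overlapped 64.0% of the genic regions without H3K36me3 (Wilson interval 63.0 to 64.9), 75.3% of those partly under it and 59.1% of those wholly inside it (57.4 to 60.9). The regions partly under it were wider, with a median of 2642 bp against 1554 bp outside and 1584.5 bp wholly inside, and the part of width in these shares was not tested. Against single H3K27ac libraries the shares were 71.8% and 68.6% outside and 71.3% and 63.7% inside, so the difference between inside and outside was small in 1 of the 2. Exons made up 13.1% and 15.7% of the genic H3.3-HA length and 19.9% and 19.8% of the H3K36me3 length, against 9.23% of all gene bodies, with both H3K36me3 libraries above both H3.3-HA libraries.

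The letters of the DNA also differed. In 300 bp centres, the PU.1 letters GAGGAAGT, on either strand, were found in 5.67% of 9961 genic H3.3-HA regions that touched no H3K36me3 and lay over 1 kb from a gene start (Wilson interval 5.23 to 6.14), in 2.47% of those wholly inside H3K36me3 (1.97 to 3.08) and in 1.67% of 29319 genic H3K36me3 regions (1.53 to 1.82). On a fixed grid of 300 bp windows every 50 kb, 1.88% of the 20688 windows in genes and 1.87% of the 52960 windows in the genome held them. With the regions of single libraries the share was 6.55% and 4.20% outside H3K36me3, 2.49% and 2.25% inside it, and 1.66% and 1.70% in H3K36me3 regions, so the outside values exceeded all others in both replicates. The AP-1 letters TGANTCA were found in 12.7% outside, 9.51% inside and 8.60% of H3K36me3 regions, against 8.79% of genic windows. For the C/EBP letters TTGCNNAA the shares were 13.4%, 11.7% and 11.3% against 12.8%, and the outside share was 15.5% and 11.6% in the single H3.3-HA libraries, on both sides of the genic windows. The outside share of the AP-1 letters was 13.7% and 10.6%. For the ISRE, the interferon-stimulated response element, the shares were 5.04%, 4.05% and 4.20% against 4.91%. GC content averaged 44.9% outside, 43.3% inside and 43.7% in H3K36me3 regions, and 52.3% in the 742 H3.3-HA regions centred within 1 kb of a gene start, where PU.1 letters were found in 3.91%. Motifs were searched on both strands, none of the 4 contains another, and a match is a description of the letters and no measure of binding.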

How the data were processed

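The authors deposited 1 region list per CUT&RUN library, called with HOMER on mm10 in its histone style, and the submitters' notes name cutadapt, Bowtie, HOMER and deepTools without versions. Per the file headers, regions were built from 500 bp peaks with a minimum distance of 1000 bp, at 4-fold over the IgG control and a Poisson p of 1e-04 over it. The deposited score column held 1 in every row, so it could not set a stricter threshold, and tag totals came from the headers. No read-level value was used, so cover is a called length and not a signal height.

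Regions of 2 replicates were merged, and merged regions touched by both lists (1 bp) were kept as shared. Gene bodies were the 21911 protein-coding genes of GENCODE M21, 1 record per symbol, and 17779 of them were 5 kb or more. Library values were compared with an exact two-sided permutation test, and shares carry 95% Wilson intervals that cover counting error only. Named genes were, among genes of 5 kb or more that overlap no other, the 5 with the most H3.3-HA and no H3K36me3, the reverse, the 5 with the most of both, and, among those with 10% or more of both, the 5 with the H3.3-HA centre farthest on each side of the H3K36me3 centre, besides genes displayed by the study and up to 4 leading members of each list. Other list genes in the text were picked after their values were seen. The members and the lists were chosen with earlier results of these data known. The labels give biological replicates, 2 per group. Scripts used Python 3.11.15, numpy 2.4.6, pandas 2.3.3, scipy 1.17.1 and matplotlib 3.10.9 and were tested on simulated data. Alternatives changed the overlap rule, region width, gene set, gene body, gene length minimum, pooling, window and libraries. The lists of the H3.3 knockout line and the IgG samples were not used here.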

Additional observations from a re-analysis of the deposited data

How the results depend on the processing

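Differences below are H3K36me3 minus H3.3-HA over shared regions, in percentage points, unless library means are named. The direction held in every alternative but 1 for cover, the 3 parts of the gene, the start and end base and the order along genes. With lists of equal covered length, an alternative chosen after seeing the data, the difference in mean cover turned to -0.0702, while that of library means kept its sign at 0.381. The difference at the end base turned to -1.24 (-0.678 for library means). The 5′ end, middle and 3′ end parts gave -24.2, 5.01 and 19.2 with these lists. The genes with both, H3.3-HA alone and H3K36me3 alone were then 1769, 5525 and 596, the H3.3-HA length inside H3K36me3 13.1% and Spearman's rho 0.314. That alternative leaves 2832 and 2649 of the widest H3K36me3 regions. For the values that turned or moved, the cause was not tested.

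With the bases covered in both replicates, the 3′ end part gave 16.1, the start base -2.44, the length inside 25.4% and rho 0.508. The H3.3-HA values themselves fell, mean cover to 2.99% and end-base cover to 5.46%, and with a reciprocal overlap to 2.64% and 4.51%, from 6.23% and 10.1%. With a reciprocal overlap of 50%, the middle and 3′ end parts gave 2.63 and 17.1, the start and end base -2.05 and 21.6, the length inside 25.9% and rho 0.419. With regions of 1 kb or more, the start and end base gave -2.62 and 21.9, both targets were found in 3907 genes and H3.3-HA alone in 817, the order was 66.3% and rho 0.438. Genes that overlap no other gave 16.5 at the 3′ end part, 17.5 at the end base and rho 0.541. The longest coding transcript gave 21.6 at the end base, 34.7% inside and rho 0.512. With no length minimum the end base gave 17.7, and with 20 kb the middle and 3′ end parts gave 2.86 and 16.3, the end base 22.7 and the order 75.9%.

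Leaving out 1 library at a time gave ranges of 13.2 to 15.8 for mean cover in library means and 14.0 to 17.0 in shared regions, -20.4 to -17.4 and -20.4 to -17.5 for the 5′ end part, 3.26 to 4.91 and 3.31 to 4.96 for the middle, 14.2 to 15.4 and 14.1 to 15.4 for the 3′ end, -9.67 to -4.20 and -9.60 to -4.13 for the start base and 18.4 to 19.6 and 18.1 to 21.5 for the end base. Genes with both ranged from 6345 to 7564, H3.3-HA alone from 1396 to 2426, H3K36me3 alone from 2235 to 3884 and neither from 9686 to 10251. The order ranged from 69.6% to 75.4%, the length inside from 31.0% to 34.0% and rho from 0.521 to 0.562. Leaving out a library also drops the sharing rule for its target, since the other list is then taken whole. The main values of 6205 genes with both, 10518 with neither and rho 0.517 therefore lie outside these ranges.

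The libraries of both targets carry the same replicate numbers, but they came from different mouse lines, so the numbers pair nothing by design. With the replicate block the differences of the library means were the same (14.5 for mean cover), and the exact sign-flip p was 0.5, the smallest it can give. Neither test can pass 0.05 with 2 libraries per group, so p says nothing here about stability. The H3.3-HA libraries were shallower, and an H3.3-HA region that was not called may lie below the depth needed.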
